A study of Mus musculus with 10 samples.

Results

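The GATA factor genes Gata1, Gata2, Gata3, Gata4, Gata5 and Gata6 were examined for the chromatin around them that ATAC-seq listed as open. The family was taken by name, 6 of 21851 protein-coding genes, and a peak was assigned to a member when its summit lay within the gene or up to 100 kb to either side of it. Libraries came from G1E-ER4 cells, a mouse erythroid line that is 1 Gata1-null subclone of G1E and constitutively carries GATA1 fused to the ligand-binding domain of the estrogen receptor. In ATAC-seq, the Tn5 transposase cuts accessible DNA and tags it for sequencing. Cells were untreated (0 h) or held in β-estradiol at 1e-07 M, which activates the fusion protein, for 2, 6, 12 or 24 h. All groups shared the Gata1-null background, the fusion protein and a medium with SCF and erythropoietin, and 2 libraries were made per time point from about 50000 cells each. The study describes its ATAC-seq replicates as independent experiments, so p-values rest on variation between libraries of those experiments. The lists give summits and no reads, so the loss of Gata1 and the presence of the fusion protein could not be checked.

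GATA factors are zinc finger proteins that bind the sequence GATA with its flanking bases. GATA1 drives the maturation of red cells, megakaryocytes and mast cells, GATA2 maintains blood stem and progenitor cells and mast cells, and GATA3 directs T cells, whereas GATA4, GATA5 and GATA6 act in heart, gut, liver and other tissues. In maturing erythroid cells GATA1 takes the place of GATA2 at sites around the Gata2 gene as that gene is shut down, an exchange known as the GATA switch, and the G1E-ER4 line has been a main model for it.

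The 10 lists held 10698 (24 h replicate 2) to 19859 (6 h replicate 2) peaks and 146939 in all, and the read depth behind them is unknown. A peak that is not listed was therefore not detected at the depth of that library, which differs from closed chromatin. In bulk libraries, fewer cells with an open site and a less open site in each cell cannot be told apart. Summits of all lists were widened to 501 bp and merged into 28981 regions. Each peak was given the percentile of its score within its own list, from 100 for the highest, with 0 where a library had no peak in the region. Transcript starts, here and below, are those of protein-coding transcripts only. In the marker check, 5 of 7 erythroid genes had a peak within 1 kb of a transcript start in at least 1 library. Tfrc, the transferrin receptor gene, had one in all 10. Klf1 had one in 4 libraries and Tal1 in 2. Slc4a1 and Alas2, 2 defining erythroid genes, had none in any library. None of the 4 mast and myeloid, 4 T cell, 3 heart or 4 liver and gut genes had one. Of all protein-coding genes, 56.0% had none in any library either, so such an absence says little. Ms4a2, in the mast and myeloid list, is a gene whose promoter the study captured as repressed in these cells.

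The 6 windows held 41 of the 28981 regions. Gata2 had 13, Gata1 and Gata5 had 9 each, Gata3 and Gata4 had 5 each and Gata6 had none. Per library, the Gata1 window held 6 to 9 peaks (median 7), the Gata2 window 3 to 10 (median 5.5), the Gata5 window 3 to 6 (median 5), the Gata4 window 2 to 5 (median 4) and the Gata3 window 2 to 4 (median 2.5). Since the windows differ in length, levels were compared per 100 kb. The medians over libraries were 3.20 peaks per 100 kb for Gata1, 2.58 for Gata2, 2.39 for Gata5, 1.47 for Gata4, 1.07 for Gata3 and 0 for Gata6, against a median of 1.04 over all protein-coding genes. Of all genes, 85.4% lay below Gata1, 78.5% below Gata2, 75.4% below Gata5, 59.0% below Gata4 and 50.4% below Gata3. The ranges of neighbouring members in this order overlapped from Gata1 down to Gata3, and only Gata6 lay outside the range of its neighbour. The order changed with the window. With flanks of 50 kb the median number of peaks was 4 for Gata2, 3 for Gata1, 2.5 for Gata3, 2 for Gata4 and 0 for Gata5 and Gata6. Without promoters of other genes, in the 100 kb flanks, it was 5.5 for Gata2, 2.5 for Gata3 and Gata5, 2 for Gata1 and 1.5 for Gata4.

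**Figure D1:**
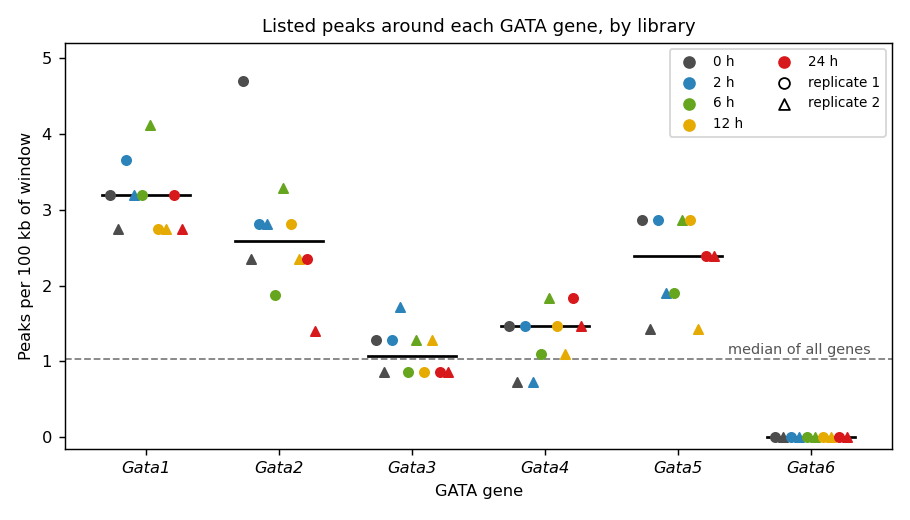
Peaks per 100 kb of window (vertical axis) for each GATA gene, with a point per library, coloured by hours of estradiol and shaped by replicate, and a black bar at the median. With flanks of 100 kb and the promoters of neighbours counted, Gata1 had the highest median (3.20) and Gata6 lay at 0 in all 10 libraries, and the dashed line marks the median of all genes (1.04).

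No member had a widely listed peak within 1 kb of a start of its protein-coding transcripts. Within that distance, Gata1 had a peak in 1 library (6 h replicate 2) and the other 5 members in none. Over all protein-coding genes, 56.0% had no such peak in any library and 26% had one in all 10. The Gata3 span extends upstream of its protein-coding start, and the region at −10.9 kb from it, in all 10 libraries, lay at the upstream end. Because no member had a promoter region in 2 or more libraries, no other genes could be ranked by likeness to a member promoter. Gata6, on chromosome 18, had no peak anywhere in its 233.6 kb window in any library, as did 19.6% of all genes.

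The blood-cell members Gata1, Gata2 and Gata3 were set beside Gata4, Gata5 and Gata6 as a description, with no test. The blood-cell members held 27 regions, 8 of them in all 10 libraries, and the others held 14, with 4 in all 10. Over all regions, 21.5% were in all 10 libraries. In each library, counted in the order 0 h replicate 1 to 24 h replicate 2, the blood-cell windows held 20, 13, 17, 17, 13, 19, 14, 14, 14 and 11 peaks. The other windows held 10, 5, 10, 6, 7, 11, 10, 6, 10 and 9 in the same order. The blood-cell count was the higher in every library, and the ranges of both groups met at 11 peaks. Part of both counts came from the promoters of neighbouring genes. Without regions within 1 kb of a start of another gene, the blood-cell members had 22 regions, 5 of them in all 10 libraries, and 6 to 15 peaks per library (median 9.5, or 1.43 per 100 kb). The others then had 9 regions, 0 in all 10 libraries, and 1 to 6 peaks per library (median 4.5, or 0.628 per 100 kb). Score ranks did not follow the counts in the same way. With all regions, the median of their mean percentiles was 12.9 for the blood-cell members and 18.8 for the others. Without promoters of other genes it was 10.7 and 9.03. Summed over libraries, Gata2 held 57 of the 104 blood-cell peaks, Gata3 26 and Gata1 21. Gata5 held 24 of the 39 others, Gata4 15 and Gata6 0, so the group totals do not describe each member. All 4 regions around Gata4 and Gata5 that every library listed were the promoters of Fdft1, Ctsb, Rps21 and Cables2.

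**Figure D2:**
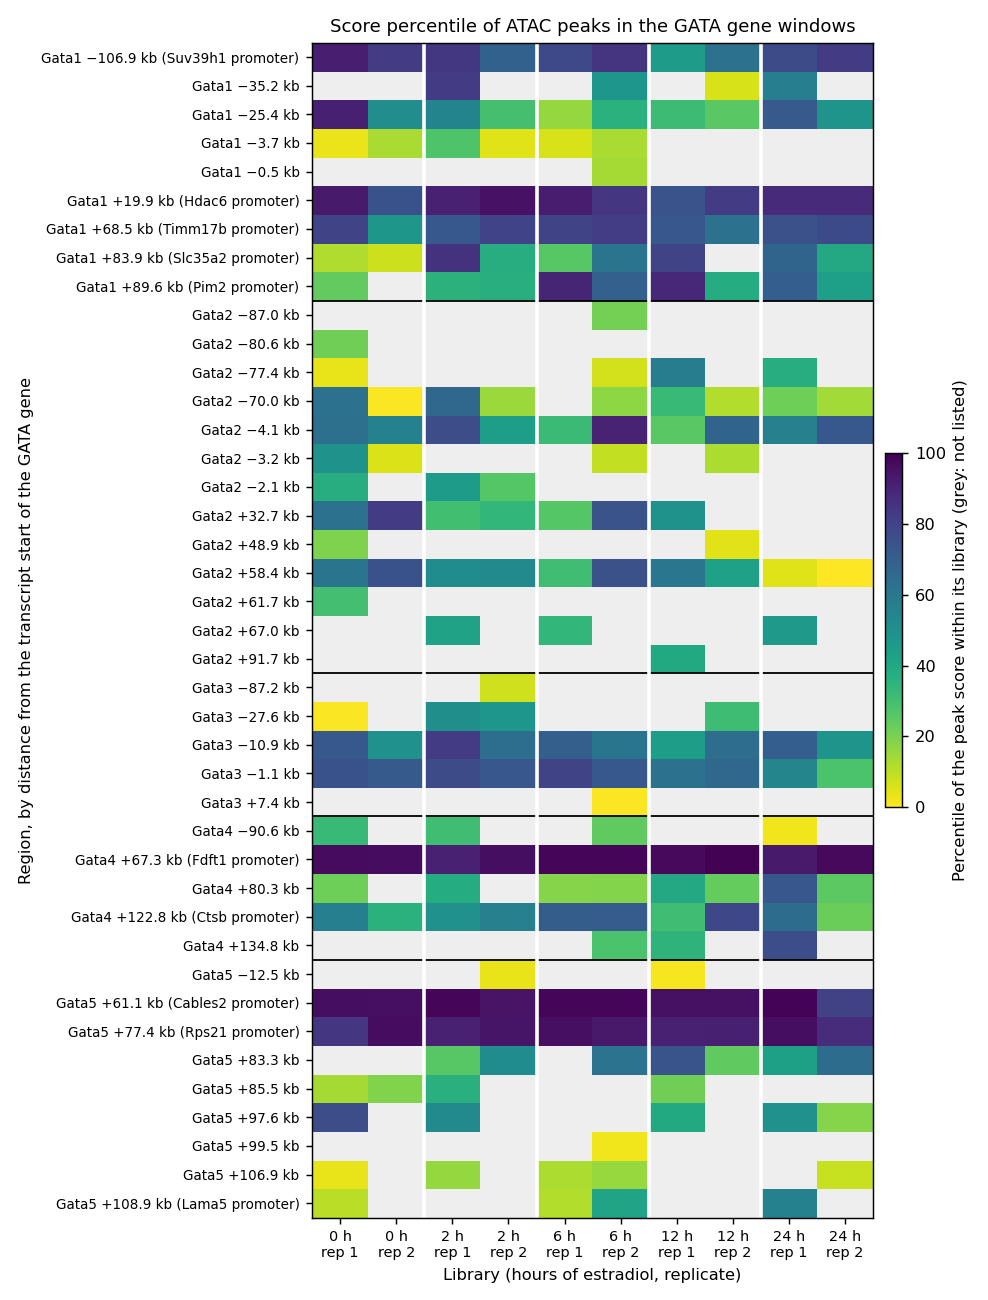
Score percentile (colour, 0 to 100) of each of the 41 regions (rows, named by member and distance from its transcript start in kb) in each of the 10 libraries (columns, by hours of estradiol and replicate), with grey where no peak was listed. The promoters of Fdft1, Cables2 and Rps21 were the most uniform regions, the Gata2 regions at −4.1 and +58.4 kb and the Gata3 regions at −1.1 and −10.9 kb were in all 10 libraries, and most other regions were in some libraries only.

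Gata2 had the most regions, and none of them lay within 1 kb of a start of any protein-coding gene, so that all 57 of its listed peaks counted as distal. Starts of other gene models were not considered, such as Gm38708, of which an exon overlaps the 201 bp centred on the −3.2 kb summit. Its gene span (mm10 chr6:88193891-88207032, plus strand) held no peak in any library, and the 13 regions formed an upstream group from −87.0 to −70.0 kb, a group just upstream of the gene from −4.1 to −2.1 kb, and a downstream group from +32.7 to +91.7 kb. Regions are named by the distance of their highest summit from the transcript start, negative upstream, which can exceed 100 kb because a window starts at the ends of the gene span. The +32.7, +48.9 and +58.4 kb regions lay in introns of Dnajb8, the nearest other protein-coding gene, and those at +67.0 and +91.7 kb in introns of Eefsec, as annotated.

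The Gata2 region at −4.1 kb, in an intron of the gene model Gm38708, was in all 10 libraries. Its score percentiles were 63.0 and 55.9 (0 h), 76.3 and 44.0 (2 h), 31.9 and 90.6 (6 h), 25.4 and 67.9 (12 h), and 56.5 and 72.4 (24 h). At 2, 6 and 12 h the libraries of 1 time point differed by more than any pair of time point means, and the 24 h mean of 64.4 ± 11.3 (SD, n = 2) overlapped the 0 h mean of 59.5 ± 5.05 (SD, n = 2). In limma with Benjamini-Hochberg adjustment over all 20613 regions listed in 2 or more libraries, the difference between 24 h and 0 h was 4.99 percentile points (SE 23.1, adjusted p = 1).

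Closer to the start, the −3.2 kb region (chr6:88190434-88191029) was at 48.7 and 5.40 (0 h) and at 9.0 in 6 h replicate 2 and 12.4 in 12 h replicate 2. No 2 h or 24 h library listed it. The −2.1 kb region was at 37.7 in 0 h replicate 1 and at 45.2 and 26.2 (2 h). It was listed in no library from 6 h on, and in 1 of the 0 h libraries only, so it did not count as lost. Its slope in time order was −7.34 points per step (SE 3.39, unadjusted p = 0.0454, adjusted p = 0.859 in limma).

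The +32.7 kb region was at 62.3 and 82.2 (0 h), 30.3 and 33.8 (2 h), 26.3 and 74.2 (6 h), and 49.1 in replicate 1 at 12 h. Neither 24 h library, nor 12 h replicate 2, listed it. Both 0 h libraries thus lay above every library of 2, 12 and 24 h, and 1 of the 6 h libraries lay between them. Its slope of −15.2 points per step in time order (SE 5.95, unadjusted p = 0.0210) did not pass in limma after adjustment over all regions (adjusted p = 0.800, and at least 0.347 under the alternatives run).

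The +58.4 kb region was listed in all 10 libraries, and its percentiles were 61.7 and 75.0 (0 h), 51.4 and 52.6 (2 h), 30.7 and 75.4 (6 h), 60.7 and 42.8 (12 h), and 4.80 and 0.370 (24 h). Both 24 h libraries stood below the other 8, which ran from 30.7 to 75.4. The 24 h mean was 2.58 ± 3.13 (SD, n = 2) and the 0 h mean 68.3 ± 9.38 (SD, n = 2), a difference of −65.8 points (SE 23.0, unadjusted p = 0.0158, adjusted p = 0.865 in limma). Here the region stayed above the calling threshold at 24 h while its rank lay near the bottom of both lists.

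The other Gata2 regions were weaker or less repeatable. The −70.0 kb region was in 9 libraries, from 0.670 (0 h replicate 2) to 66.6 (2 h replicate 1), and its 0 h libraries alone differed by more than its time point means. The −77.4 kb region was in 4 libraries, at 3.27 in 0 h replicate 1, 6.67 in 6 h replicate 2, 57.8 in 12 h replicate 1 and 37.8 in 24 h replicate 1. The +67.0 kb region was at 42.4 in 2 h replicate 1, 33.7 in 6 h replicate 1 and 46.0 in 24 h replicate 1, all of them replicate 1 libraries, and no time point had either region in both libraries. The +48.9 kb region was in 2 libraries and the remaining 4 in 1 library each. Of the 4 regions listed in a single library, 2 belonged to 0 h replicate 1, which held 10 peaks in the window against 5 in 0 h replicate 2.

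**Figure D3:**
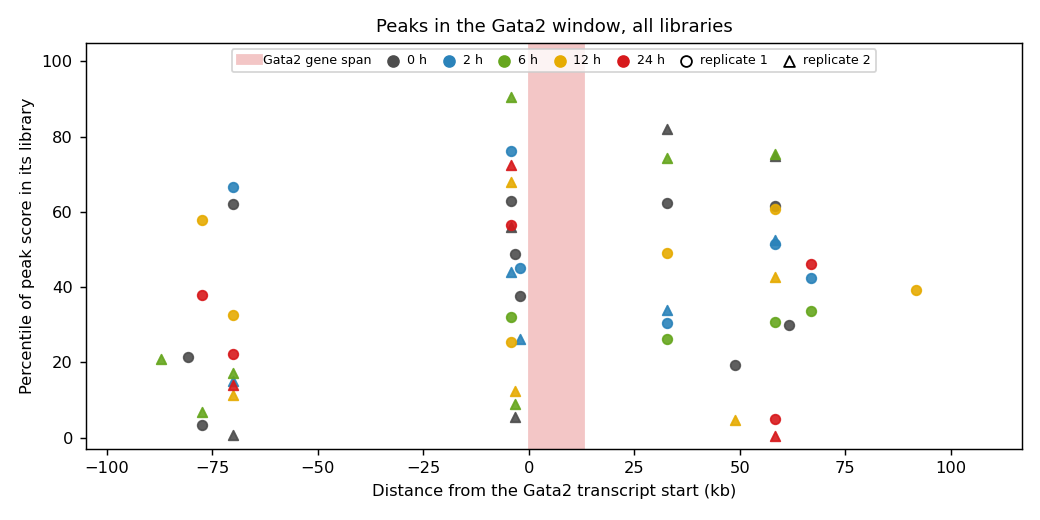
Every listed peak in the Gata2 window by distance from the transcript start (horizontal axis, kb) and score percentile in its library (vertical axis), coloured by hours of estradiol and shaped by replicate, with the gene span shaded. No point lies in the gene span, the 24 h points at −4.1 kb lie at 56.5 and 72.4, and those at +58.4 kb at 4.80 and 0.370.

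The bases under these summits are shown because GATA1 is the factor being activated. Matches on either strand to any of 4 GATA hexamers stand in capitals, a match on the minus strand reading as its reverse complement, and each sequence is 201 bp of the RefSeq mm10 genome centred on the highest summit. The hexamers were AGATAA and its relative TGATAA, together with AGATAG and its relative TGATAG. At −2.1 kb, AGATAA and, on the other strand, TTATCA face each other across 3 bases, and the first also follows a CTG at the spacing of a composite site of TAL1 with GATA. That composite was searched on both strands as CTG followed after 7 or 8 bases by AGATAA or by TGATAA, and its GATA part counted as a match too.
Gata2 −4.1 kb region, chr6:88189662-88189862, plus strand: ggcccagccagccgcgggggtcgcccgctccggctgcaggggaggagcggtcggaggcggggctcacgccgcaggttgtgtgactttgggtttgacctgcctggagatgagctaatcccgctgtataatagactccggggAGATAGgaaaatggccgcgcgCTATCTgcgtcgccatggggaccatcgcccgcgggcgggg
Gata2 −2.1 kb region, chr6:88191711-88191911, plus strand: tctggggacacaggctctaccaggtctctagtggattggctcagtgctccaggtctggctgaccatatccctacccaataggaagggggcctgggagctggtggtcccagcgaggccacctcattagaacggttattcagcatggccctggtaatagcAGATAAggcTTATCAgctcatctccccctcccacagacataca
Gata2 +32.7 kb region, chr6:88226539-88226739, plus strand: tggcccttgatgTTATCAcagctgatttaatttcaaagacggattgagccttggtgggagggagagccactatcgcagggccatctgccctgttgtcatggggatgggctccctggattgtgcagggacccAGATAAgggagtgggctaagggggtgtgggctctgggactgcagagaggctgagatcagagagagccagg
Gata2 +58.4 kb region, chr6:88252211-88252411, plus strand: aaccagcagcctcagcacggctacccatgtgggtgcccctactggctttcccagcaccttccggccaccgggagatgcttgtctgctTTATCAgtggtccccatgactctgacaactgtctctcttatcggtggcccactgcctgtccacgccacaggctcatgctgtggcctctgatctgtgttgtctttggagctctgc

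Of the 13 Gata2 regions, 10 held a GATA match in these 201 bp, 5 held 2 or more and 2 (−3.2 and −2.1 kb) held the composite. Over all 28981 regions the shares were 36.5% with a match, 13.7% with 2 or more and 4.87% with the composite. Over the 19383 of them that lay, like the Gata2 regions, more than 1 kb from any protein-coding start, they were 48.5%, 19.6% and 6.88%. The match nearest to its summit lay 0.5 bp away, at −77.4 kb, and the −70.0, −80.6 and +48.9 kb windows held none of these letters. In the other members, counted without promoters of other genes, matches were in 2 of 4 Gata1, 1 of 5 Gata3, 2 of 3 Gata4 and 3 of 6 Gata5 regions. A match describes letters in these windows only.

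Gata1 itself (mm10 chrX:7959260-7978071, minus strand) had 9 regions, 5 of them at the promoters of neighbours. Those of Hdac6, a deacetylase, Timm17b, of mitochondrial protein import, and Suv39h1, a histone methyltransferase, were in all 10 libraries with mean percentiles of 86.3, 72.8 and 75.7. The promoter of Pim2, a kinase, was at 24.1 and 0 (0 h) and between 35.9 and 89.8 in the 8 later libraries, so the 0 h and later libraries did not overlap. Its slope of 11.6 points per step (SE 5.61, unadjusted p = 0.0546) did not pass in limma (adjusted p = 0.859). The promoter of Slc35a2, a sugar transporter, was at 12.1 and 7.63 (0 h) and ranged from 0 (12 h replicate 2) to 85.4 later.

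Of the 4 Gata1 regions outside such promoters, the intergenic −25.4 kb region (chrX:7992751-7993787) was in all 10 libraries. Its percentiles were 91.2 and 51.1 (0 h), 54.8 and 29.5 (2 h), 15.9 and 36.1 (6 h), 31.5 and 25.7 (12 h), and 72.2 and 48.4 (24 h). It was lowest at 6 and 12 h, when all 4 libraries lay below those of 0 h and 24 h, and its 24 h range overlapped that of 0 h. The difference between 24 h and 0 h was −10.8 points (SE 23.7, adjusted p = 1 in limma). No GATA match stood in its 201 bp.

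The −3.7 kb region, in an intron of a longer Gata1 transcript, was at 2.80 and 12.7 (0 h), 27.5 and 4.76 (2 h), and 6.06 and 12.7 (6 h). No 12 h or 24 h library listed it. It was thus lost at 12 and 24 h, and its highest percentile before that was 27.5. Its difference between 24 h and 0 h was −7.77 points (SE 9.47, adjusted p = 1 in limma). The −35.2 kb region was in 4 libraries, from 6.16 (12 h replicate 2) to 82.2 (2 h replicate 1), with no time point listing it in both. The −0.5 kb region, the only peak within 1 kb of a protein-coding start of a member, was at 13.5 in 6 h replicate 2.

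Both regions near the Gata1 start are shown for their GATA matches, with capitals as above. The −0.5 kb window carries AGATAA and, reading on, TTATCA across 3 bases, the arrangement also found at Gata2 −2.1 kb, and 1 composite.
Gata1 −0.5 kb region, chrX:7968297-7968497, plus strand: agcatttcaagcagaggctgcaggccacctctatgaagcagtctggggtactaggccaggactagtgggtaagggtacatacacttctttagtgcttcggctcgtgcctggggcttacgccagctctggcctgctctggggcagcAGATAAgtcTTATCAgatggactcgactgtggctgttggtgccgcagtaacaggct
Gata1 −3.7 kb region, chrX:7971529-7971729, plus strand: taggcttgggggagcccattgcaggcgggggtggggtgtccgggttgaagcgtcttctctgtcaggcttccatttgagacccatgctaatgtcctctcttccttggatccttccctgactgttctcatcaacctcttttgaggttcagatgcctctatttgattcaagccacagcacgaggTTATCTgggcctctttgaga

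Gata3, the T cell member, had 2 regions that every library listed. The gene spans mm10 chr2:9857078-9890034 on the minus strand. The −1.1 kb region lay 1106 bp from its protein-coding start, just outside the limit of 1 kb used for promoters. Its percentiles were 74.7 and 71.8 (0 h), 77.3 and 72.7 (2 h), 79.6 and 72.4 (6 h), 62.2 and 66.4 (12 h), and 54.6 and 28.3 (24 h). The 24 h libraries were the lowest and both 12 h libraries lay between them and the rest. Its slope of −7.43 points per step (SE 3.07, unadjusted p = 0.0273) did not pass in limma (adjusted p = 0.841). Between 24 h and 0 h it differed by −31.8 points (SE 13.2, unadjusted p = 0.0357, adjusted p = 0.991). The 24 h replicates (SD 18.6) were farther apart than those of any other time point (SD 2.09 to 5.07).

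The −10.9 kb region of Gata3 (chr2:9889241-9890034) lay over an exon of the gene 9230102O04Rik, 5.5 kb from the protein-coding start of that gene. It ran from 43.9 (12 h replicate 1) to 82.7 (2 h replicate 1). The region lies at the upstream end of the Gata3 span, and starts of noncoding transcripts were not considered. Its 24 h mean of 59.2 ± 15.5 (SD, n = 2) overlapped the 0 h mean of 61 ± 16.3 (SD, n = 2). The −27.6 kb region was at 50.0 and 47.4 (2 h), 30.9 in 12 h replicate 2 and 0.770 in 0 h replicate 1, and 2 further regions were in 1 library each. The sequence of the −1.1 kb region is shown because, outside the promoters of other genes, it had the highest mean percentile around any member. It holds none of the GATA matches searched and is 63.7% G and C, against a median of 52.2% over all regions.
Gata3 −1.1 kb region, chr2:9879606-9879806, plus strand: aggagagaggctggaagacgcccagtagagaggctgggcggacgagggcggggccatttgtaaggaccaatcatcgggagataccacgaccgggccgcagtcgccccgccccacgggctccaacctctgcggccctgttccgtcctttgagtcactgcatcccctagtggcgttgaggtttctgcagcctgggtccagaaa

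Gata4 (mm10 chr14:63198922-63271692) and Gata5 (chr2:180325133-180334699), factors of heart and gut, both on the minus strand, had no peak inside their own gene spans. Around Gata4, the promoter of Fdft1, the gene for squalene synthase, was among the highest-ranked peaks of each library (90.7 to 99.2), and that of Ctsb, a lysosomal protease, ran from 22.3 to 78.2. The region at +80.3 kb, in Fdft1, was in 8 libraries, at 22.2 in 0 h replicate 1 and 72.9 and 25.1 (24 h). The region at +134.8 kb was in 3 libraries and that at −90.6 kb in 4. None of these came within 67.3 kb of the Gata4 start.

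Around Gata5, the promoters of Cables2 (80.1 to 99.0) and of Rps21, a ribosomal protein gene (84.2 to 96.5), were in all 10 libraries, and the promoter of Lama5, a laminin chain, was in 4. The +83.3 kb region (chr2:180250994-180251809) was in neither 0 h library and was then at 25.8 and 51.2 (2 h), 62.1 in replicate 2 at 6 h, 74.2 and 24.3 (12 h), and 43.2 and 64.6 (24 h). It was gained at 2, 12 and 24 h, and it lies 6.0 kb from the start of Rps21, far nearer than to Gata5. The +85.5 kb region next to it (chr2:180248825-180249429) was at 13.4 and 18.8 (0 h), 36.6 in 2 h replicate 1 and 21.5 in 12 h replicate 1, and it was lost at 6 and 24 h. The +97.6 kb region was in 5 libraries, from 18.2 to 76.3, without a 6 h library. The closest region to the gene, at −12.5 kb, was in 2 libraries at 3.51 and 1.52.

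**Figure D4:**
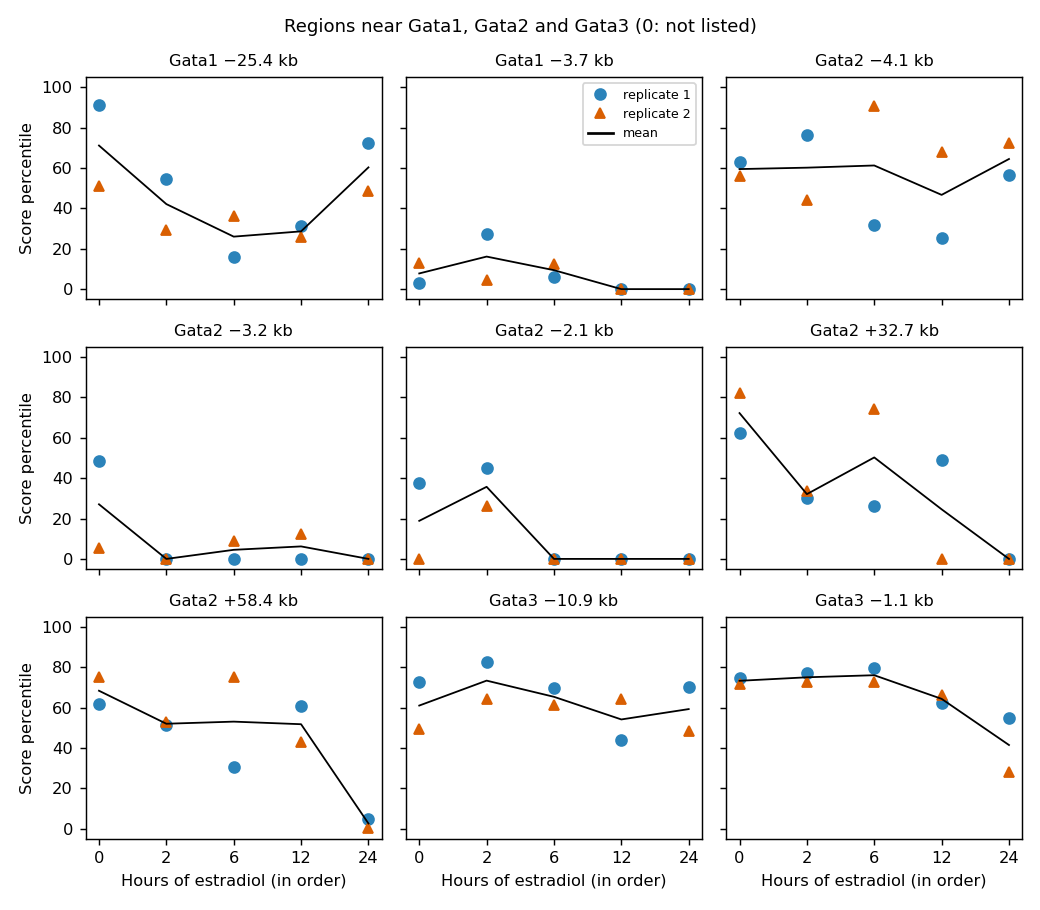
Score percentile (vertical axis, 0 where not listed) against hours of estradiol in order (horizontal axis) for 9 regions near Gata1, Gata2 and Gata3, with a circle for replicate 1, a triangle for replicate 2 and a line through the means. The Gata2 region at +58.4 kb had a mean of 68.3 at 0 h and 2.58 at 24 h, a difference that did not pass the adjusted test, the Gata2 region at −4.1 kb showed replicates far apart at 6 h (31.9 and 90.6), and Gata3 −1.1 kb had replicates close together until 24 h.

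Gains and losses against 0 h were counted over all 41 regions by presence, with a region gained when both libraries of a time point and neither 0 h library had it, and lost in the opposite case. Losses at 24 h numbered 4, at Gata1 −3.7 kb, Gata2 −3.2 and +32.7 kb and Gata5 +85.5 kb, or 9.76% of the members' regions against 3.51% of all regions. Gains at 24 h numbered 1 (Gata5 +83.3 kb), 2.44% against 1.71%. The earlier time points share the 0 h libraries with this comparison, so their counts are not independent of it. At 2 h, 1 was gained (2.44% against 2.67%) and 1, Gata2 −3.2 kb, was lost (2.44% against 1.15%). At 6 h, 0 were gained (background 4.08%) and 1 was lost (2.44% against 0.759%). At 12 h, 1 was gained (2.44% against 2.47%) and 1, Gata1 −3.7 kb, was lost (2.44% against 1.88%). Apart from the losses at 24 h, each count was 0 or 1.

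The losses at 24 h depended on list length and, at Gata2 −3.2 kb, on the merging distance. With each list reduced to the length of the shortest, 1 of 32 regions was lost, Gata2 +32.7 kb, against 3.80% of all regions. Of the 32, 4 were gained, against 2.66% of all. These were Gata1 +83.9 and +89.6 kb, the promoters of Slc35a2 and Pim2, and Gata4 +80.3 and Gata5 +83.3 kb. Apart from Gata2 +32.7 kb, the 3 regions lost with full lists had a 0 h percentile under 19 in at least 1 library. With 500 bp on each side of a summit, Gata2 −3.2 kb merged with the −4.1 kb region and was not lost. That left 3 regions lost, against 3.59% of all regions.

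**Figure D5:**
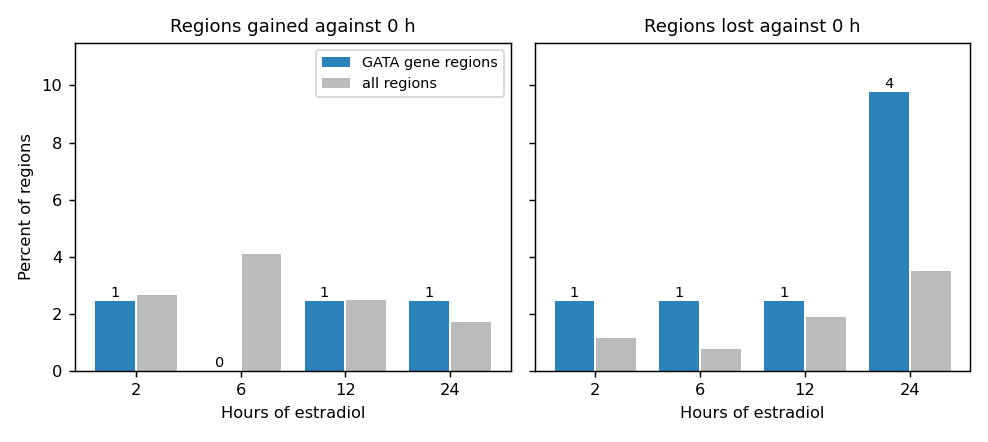
Percent of regions (vertical axis) gained (left) or lost (right) against 0 h at each time point (horizontal axis, hours of estradiol), for the 41 regions around the GATA genes in blue with their number above the bar, and for all 28981 regions in grey. The bars differ most for losses at 24 h, with 4 regions or 9.76% against 3.51%.

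Score percentiles were then tested over the whole course. None of the members' 33 regions listed in 2 or more libraries passed in limma after adjustment, with 0 positive and 0 negative slopes called, as over all regions (0% and 0% of 20613), and a lowest adjusted p of 0.800. At an unadjusted p under 0.05, 4 of the 33 had a negative slope (12.1% against 3.82% of all regions) and 0 a positive one (background 1.60%). The 4 were Gata2 −2.1, +32.7 and +58.4 kb and Gata3 −1.1 kb. Between 24 h and 0 h, 0 passed in either direction (0% and 0% over all regions), with a lowest adjusted p of 0.865, and at an unadjusted p under 0.05, 3 were lower (9.09% against 3.25%) and 0 higher (background 1.40%). The median slope was −0.66 points per step over the members' regions and −0.11 over all. The split of 4 negative and 0 positive at the unadjusted level varied with the processing and the libraries. It was 3 and 3 with the quantile-normalized log2 score, 3 and 2 with lists of equal size, 1 and 0 without 24 h replicate 1, and 0 and 3 without 24 h replicate 2. Under the other alternatives 2 to 6 were negative and 0 to 2 positive. The slope at Gata2 +32.7 kb was −14.4 points per step with either 24 h library left out (unadjusted p = 0.0546 and 0.0520 in limma), and without 0 h replicate 2 it did not reach that level either (unadjusted p = 0.0755).

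Since Gata2 had the most distal peaks, its number of peaks was set against hours, per 10000 peaks of the list. The values were 6.55 and 4.27 (0 h), 3.72 and 4.20 (2 h), 2.815 and 3.525 (6 h), 3.89 and 3.615 (12 h), and 3.21 and 2.80 (24 h). Both 0 h libraries were the highest of the 10, and the later ones ran from 2.80 to 4.20. As listed, 0 h replicate 2 held 5 peaks, within the 3 to 7 of the later libraries, in a list of 11698. Pearson's r was −0.586 (permutation p = 0.0764, adjusted p = 0.678 over 17573 genes) and Spearman's rho −0.788 (permutation p = 0.0109, adjusted p = 0.675). Without both 24 h libraries r was −0.505 (permutation p = 0.220), and with hours permuted only within replicate numbers, which leave 5 libraries each, it was −0.595 (permutation p = 0.10). The relation did not pass after adjustment for any gene (lowest adjusted permutation p = 0.0879, with 491 negative and 907 positive at an unadjusted p under 0.05), and 3.96% of genes had a lower r than Gata2.

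The same measure gave r = 0.0209 for Gata1 (permutation p = 0.949), −0.347 for Gata3 (permutation p = 0.324), 0.781 for Gata4 (permutation p = 0.00780, adjusted p = 0.529) and 0.343 for Gata5 (permutation p = 0.328). The Gata4 value rested on 24 h, since r was 0.304 without it (permutation p = 0.462), and that of Gata1 became −0.797 (permutation p = 0.0183). Gata6 gave no value.

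The windows of 12 partners and targets of GATA factors in blood held 181 regions, 35 of them in all 10 libraries (background 21.5%). Zfpm1, the cofactor FOG1, had 20 regions and a promoter peak in all 10 libraries, whereas Zfpm2, its relative in the heart, had no region. Of the partners' 126 regions tested, 0 passed in limma after adjustment, and at an unadjusted p under 0.05, 2 had a positive slope (1.59%, background 1.60%) and 5 a negative one (3.97%, background 3.82%). At 24 h, 3 of the 181 were gained (1.66%, background 1.71%) and 7 were lost (3.87%, background 3.51%). Each of these shares was near its background.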

How the data were processed

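ATAC-seq libraries of G1E-ER4 cells at 5 time points were analysed from 10 deposited peak lists, 1 per library. The authors trimmed adaptors, aligned reads to mm10, kept uniquely placed reads and ran MACS with its fragment model switched off to find peaks. Bowtie2 is named in the methods and, in the submitters' processing notes, Bowtie 1.0.0. The authors' score is −log10 of the q-value of a peak in its own library. Scores of different libraries are on no common scale and grow with depth, which is unknown, so each was used only as a percentile within its list.

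Summits were widened by 250 bp on each side and merged, and genes were placed with GENCODE M21 (basic set, mm10). Regions in 2 or more libraries were tested with limma 3.58.1 in R 4.3.3 (trended variance) for a slope over time order and for 24 h against 0 h, adjusted over all regions. The slope test counts departures of a time point from a straight line as spread, and limma draws each variance towards that of all regions. Peak numbers were tested with 100000 permutations of hours over the libraries, two-sided. Both tests were first tried on simulated data. All 6 members and each of their regions were counted, and regions were described singly where near a member start, in its gene, called, or among the 5 with the highest mean percentile. Groups and replicate numbers came from the sample titles. Alternatives were other merging distances, flanks, filters, list lengths, a quantile-normalized score, a replicate block and leaving out libraries. Members, gene lists and tests were chosen with earlier results of these data known. Mitochondrial peaks were left out. 1 result of the marker check is not reported here.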

Additional observations from a re-analysis of the deposited data

How the results depend on the processing

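No alternative gave an adjusted call in limma among the members' regions, for the slope in time order or for 24 h against 0 h, with the flank at 50 or 200 kb included. Over all regions the quantile-normalized log2 score called 62 slopes, 55 of them lower, and 7 differences at 24 h. The count of members' regions lost at 24 h moved from 4 to 1 with lists of equal size, and those gained from 1 to 4. With 500 bp on each side of a summit, 3 were lost. Leaving out a 0 h or 24 h library relaxes the rule and was added after seeing the data. It gave 4 to 9 of 41 regions lost, with 9 without 0 h replicate 2, against 11.4% of all regions. Gains numbered 1 to 4, with 4 without 0 h replicate 1 (4.65% of all regions) and 4 without 24 h replicate 2 (12.6%).

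The correlation of Gata2 peak number with hours stayed negative under 16 alternatives, from −0.732 (flank of 50 kb) to −0.322 (flank of 200 kb), and between −0.667 and −0.504 with a library left out, with no adjusted p under 0.601. Same-numbered libraries deviated together (r from 0.113 to 0.256 over 10 pairs of times), yet with 2 numbers the pairing is not shown by the design. With the replicate block, the Gata2 correlation was −0.595 (permutation p = 0.10) and both limma counts were again 0.

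The lists hold no reads, so depth limits every absence, and each time point has 2 libraries.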
